A study of Rattus norvegicus with 160 samples.

Results

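The hippocampus of young rats was compared between postnatal day 14 (P14) and postnatal day 7 (P07) in pups that had stayed with their own mother. These were 20 of the 160 arrays of the series, chosen by their labels: 5 of HR pups at P14, 5 of HR pups at P07, 5 of LR pups at P14 and 5 of LR pups at P07. HR and LR are a pair of selectively bred lines of Sprague-Dawley rats, and all pups were males raised by a dam of their own line, with no other treatment. Brains were frozen and cut into thick cryosections, hippocampal tissue was taken from them, and Cy3-labelled material from its total RNA was read on 1-colour NimbleGen arrays. Other arrays entered only where named: LR pups fostered to an LR or an HR dam, own-mother pups at P21, and the amygdala.

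In its second postnatal week the rat hippocampus passes from the last large wave of neuron production and axon growth to the building of synapses, and oligodendrocytes begin to wrap axons in myelin. Growing axons rely on particular tubulins and on collapsin response mediator proteins, which couple guidance signals to the cytoskeleton. Fast-spiking interneurons acquire the calcium buffer parvalbumin in this period, and astrocytes and microglia mature.

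Values are log2 intensities, so that a difference of 1 is a doubling, and a change is P14 minus P07 averaged over HR and LR unless a line is named, ± SE. A transcript was called when limma's p, adjusted by Benjamini-Hochberg over all 25897 transcripts, was under 0.05. Levels of different genes were not compared, because each has its own probes. Array medians lay between 119.4 and 130.4 on the linear scale, and a random control averaged 60.4 ± 3.14 (SD, n = 20). The replicate 5 arrays had the highest score of their group on the leading principal component (20.3% of the variance) in all 4 groups, so the main counts are also given without them. No label ties pups to litters. The p-values therefore describe the spread among arrays of a group, part of which may be technical. Slides and scan dates are likewise not stated, so any array batch and age cannot be told apart. In pieces of tissue, fewer cells of a type and less RNA per cell cannot be told apart.

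Of 13 measured markers of hippocampal excitatory neurons, 1, Tdo2, was above the random control on fewer than 10 of the 20 arrays. Of 17 markers of thalamus, striatum and hypothalamus 0 were, so these counts do not tell the regions apart. By another measure, 9.06% of all transcripts had a mean at or below that control. The excitatory markers moved both ways, with 2 of 13 called higher, 3 lower and a median of -0.18. Nrgn, a calmodulin-binding protein of the postsynapse and 1 of those called higher, ranged from 12.45 to 14.97 over the P14 arrays and from 11.89 to 13.94 over the P07 arrays (1.27 ± 0.27, adjusted p = 0.00215). Of the choroid plexus list, 0 of 9 members were called, and its linear intensities summed to 770 to 1309 at P14 and 720 to 1237 at P07.

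From P07 to P14 the hippocampus gained transcripts of myelin, of the mitochondrial respiratory chain and of some microglial and neuropeptide genes. It lost transcripts of growing neurons and of cholesterol synthesis. Interneuron markers were called both ways, 5 of 18 higher and 2 lower. In all, 2759 transcripts (10.7%) were called, 1554 higher (6%) and 1205 lower (4.65%) at P14. Of those, 698 were higher and 211 lower by 1 or more. Without the replicate 5 arrays 2782 were called, of which 2326 were among the 2759. Among the 9386 genes with a symbol, 355 were higher (3.78%) and 598 lower (6.37%). Counts in the gene lists are to be read against these shares. P14 and P07 arrays did not overlap within either line for 392 transcripts higher (1.51%) and 118 lower (0.456%) at P14.

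**Figure D1:**
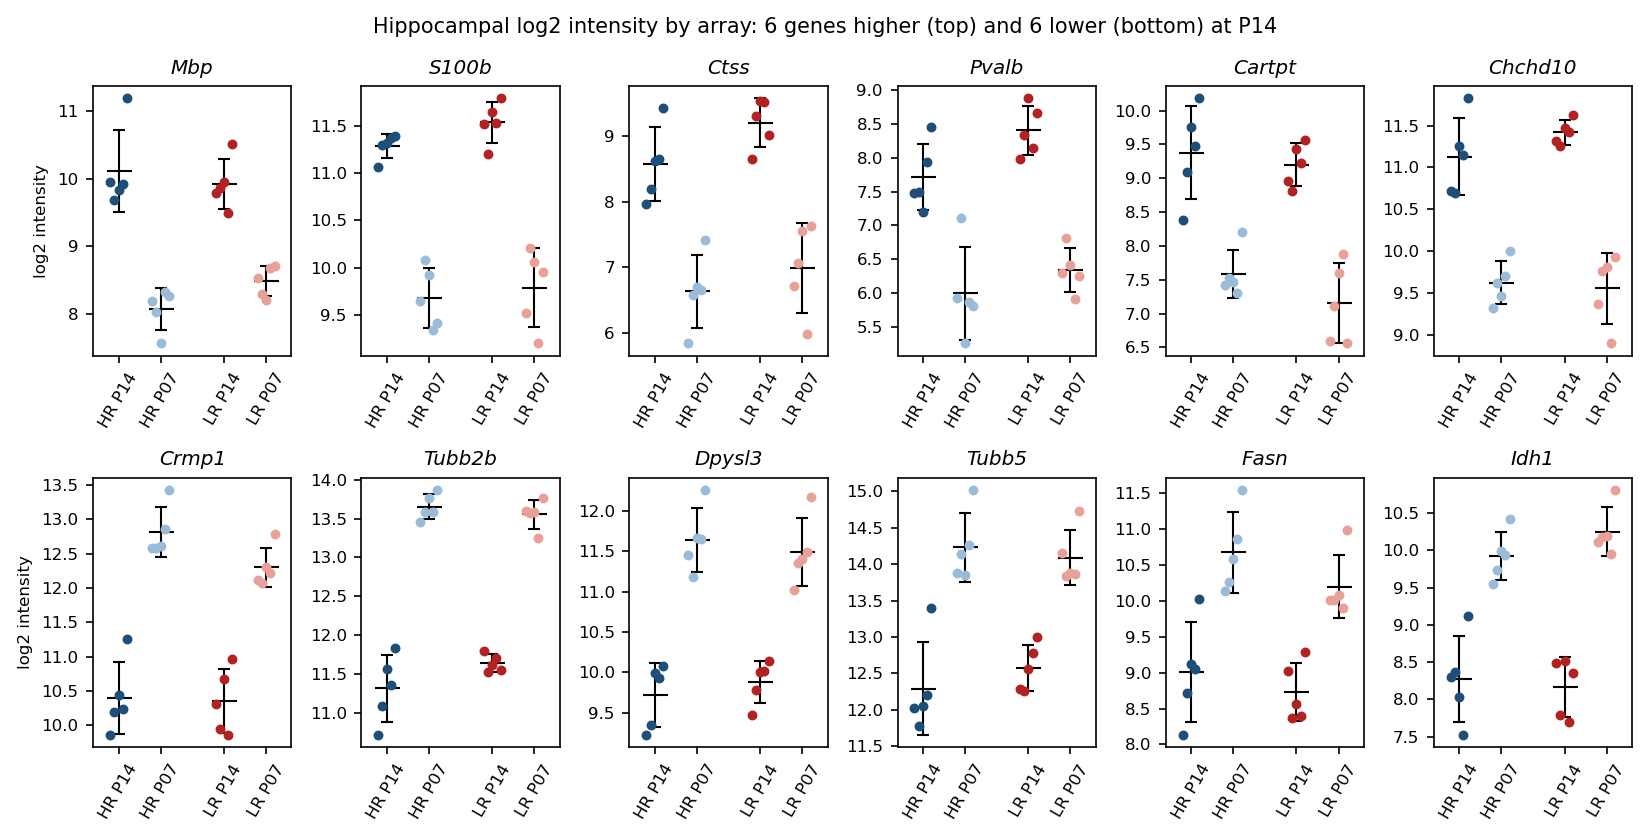
Log2 intensity (vertical axis) of 12 genes in each of the 20 arrays, with P14 left of P07 within HR and within LR; points are arrays, and bars are the mean ± SD of 5 arrays. In the top row the P14 arrays lie above the P07 arrays of their own line, and in the bottom row below them.

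The named genes with the largest falls, Crmp1 and Tubb2b, belong to growing neurons. In the immature neuron and axon growth list 16 of 29 measured members were lower and 0 higher, with a median change of -0.61, against -0.02 for all genes with a symbol. The count was 16 without the replicate 5 arrays as well. The promoters of Crmp1, a collapsin response mediator protein, and Tubb2b, a beta-tubulin of developing neurons, are shown for that reason. They come from RefSeq (build GRCr8) and run from 250 bases before the annotated start to 50 after it, 5′ to 3′ on the gene's strand. Capitals mark the motifs searched on both strands: CCAAT, the CHR element of cell cycle promoters (TTTGAA or TTCGAA), the TATA box (TATAAA), the GC box (GGGCGG), the CRE (TGACGTCA), EGR elements (GCGGGGGCG or GCGTGGGCG, which can overlap a GC box) and letters of a sterol element (CACCCCAC). The Crmp1 window lies at chr14:77780867-77781166 (minus strand) and that of Tubb2b at chr17:30952836-30953135 (plus strand).
Crmp1: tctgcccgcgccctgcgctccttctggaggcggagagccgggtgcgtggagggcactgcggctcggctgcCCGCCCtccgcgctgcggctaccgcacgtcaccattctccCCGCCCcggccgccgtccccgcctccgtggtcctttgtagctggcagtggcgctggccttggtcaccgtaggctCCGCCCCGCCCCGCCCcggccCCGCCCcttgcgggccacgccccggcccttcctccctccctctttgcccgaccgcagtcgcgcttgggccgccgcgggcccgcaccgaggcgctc
Tubb2b: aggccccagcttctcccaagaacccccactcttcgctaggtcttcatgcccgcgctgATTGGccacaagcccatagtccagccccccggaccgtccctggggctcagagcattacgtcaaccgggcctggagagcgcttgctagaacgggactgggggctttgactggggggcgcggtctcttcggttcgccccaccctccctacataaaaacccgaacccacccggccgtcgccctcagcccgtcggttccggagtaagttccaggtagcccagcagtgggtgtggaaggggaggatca
Crmp1 holds 6 GC boxes, and Tubb2b holds 1 CCAAT box. A GC box occurred in 12 of 21 list members that the table holds (57.1%), in 47% of the 7632 measured genes and in 34.9% of all 27457 promoters. A match describes the letters only.

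Crmp1 measured 9.86, 10.19, 10.45, 10.23 and 11.26 in HR at P14, against 12.58, 12.58, 12.61, 12.85 and 13.43 in HR at P07. In LR it measured 10.31, 9.95, 10.67, 9.86 and 10.97 at P14, against 12.12, 12.08, 12.31, 12.22 and 12.79 at P07. Every P14 array lay below every P07 array, with a change of -2.18 ± 0.20 (adjusted p = 1.25e-08). Tubb2b measured 10.71, 11.09, 11.57, 11.35 and 11.84 in HR at P14, against 13.46, 13.59, 13.77, 13.59 and 13.87 in HR at P07. The LR values were 11.80, 11.52, 11.61, 11.70 and 11.55 at P14, against 13.60, 13.57, 13.58, 13.25 and 13.77 at P07. Its ages did not overlap either (-2.13 ± 0.16, adjusted p = 6.12e-10). Dpysl5 (-1.87 ± 0.16) and Dpysl3 (-1.77 ± 0.18), of the same protein family as Crmp1, fell without overlap as well. So did Tubb5, a widely expressed beta-tubulin outside the list (-1.73 ± 0.21), and the neuronal beta-tubulin Tubb3 changed by -1.36 ± 0.17. Beta-tubulin genes share much of their sequence, and which of them the probes tell apart was not tested. Other members of the list that fell were the cadherin Cdh2 (-1.27 ± 0.20), the Slit receptor Robo1 (-1.11 ± 0.21) and the axonal adhesion molecule L1cam (-1.09 ± 0.20). Gap43, a growth cone protein, fell as well (-0.80 ± 0.22, adjusted p = 0.0161). Dcx, a microtubule protein of migrating neurons, was not called (-0.05 ± 0.21), and it ranged from 5.62 to 7.23 over the P14 arrays and from 6.04 to 7.16 over the P07 arrays.

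Neural progenitor genes were lower in 4 of 19 measured members and higher in 0, with a median of -0.27. Fabp7, a fatty acid binding protein of radial glia and young astrocytes, averaged 12.85 ± 0.35 in HR at P14 and 14.32 ± 0.36 in HR at P07 (SD, n = 5 each). In LR it averaged 13.74 ± 0.05 at P14 and 14.64 ± 0.21 at P07. No P14 array reached a P07 array (-1.19 ± 0.16, adjusted p = 5.69e-06). The Notch ligand Dll1 (-0.98 ± 0.23) and the transcriptional inhibitor Id2 (-0.72 ± 0.17) also fell. Sox11, a transcription factor of new neurons, was not called (-0.52 ± 0.20, adjusted p = 0.0993).

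Of 17 measured cell cycle genes 2 fell and 0 rose. They were Rrm2, a subunit of ribonucleotide reductase (-0.69 ± 0.18), and the mitotic kinase Cdk1 (-0.65 ± 0.18). Cdk1 was dim, near the level of the random control, and ranged from 5.55 to 6.77 over the P14 arrays and from 6.14 to 7.06 over the P07 arrays. Rrm2 was dim as well, from 5.90 to 6.32 at P14 and from 6.05 to 7.59 at P07. The Cdk1 promoter is shown as that of the called cell cycle gene the table holds, at chr20:19265043-19265342 (plus strand).
Cdk1: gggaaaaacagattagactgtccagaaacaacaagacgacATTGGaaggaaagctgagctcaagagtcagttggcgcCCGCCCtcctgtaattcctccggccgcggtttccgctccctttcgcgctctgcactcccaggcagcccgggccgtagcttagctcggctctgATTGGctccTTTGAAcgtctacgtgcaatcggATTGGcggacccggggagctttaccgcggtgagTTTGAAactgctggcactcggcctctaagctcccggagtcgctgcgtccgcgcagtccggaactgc
It holds 3 CCAAT boxes, 2 CHR elements and 1 GC box. A CHR element occurred in 7 of 12 cell cycle promoters (58.3%), in 17.3% of measured genes and in 19.5% of all promoters. CCAAT occurred in 10 of 12 (83.3%), against 39.1% of measured genes and 37.7% of all promoters.

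Myelin genes rose in 9 of 18 measured members and fell in 0, with a median of 0.68. Without the replicate 5 arrays 7 rose, and with all 80 hippocampal arrays in the fit 6 rose. Mbp, which compacts the myelin membrane, measured 9.96, 9.69, 9.84, 9.92 and 11.19 in HR at P14, against 8.18, 8.03, 7.56, 8.31 and 8.26 in HR at P07. In LR it measured 9.79, 9.86, 9.95, 9.50 and 10.51 at P14, against 8.53, 8.28, 8.21, 8.68 and 8.71 at P07. All P14 arrays were above all P07 arrays (1.75 ± 0.19, adjusted p = 2.27e-07). Of 5 Mbp transcripts 4 were called higher, and the other, with a mean of 6.51, changed by -0.29 ± 0.20 and was not called. Bcas1, found in oligodendrocytes that start to myelinate, rose by 1.61 ± 0.20. Mag, an adhesion protein of the innermost wrap, rose by 1.57 ± 0.22 and Cldn11, the tight junction protein of myelin, by 1.54 ± 0.21. Mog, a surface protein of finished myelin, was not called (0.18 ± 0.20). The intensities of the list summed to 4825 to 9478 at P14 and 2754 to 4292 at P07. Of 7 precursor genes 1 rose, Gpr17, a receptor of committed precursors (0.77 ± 0.19), and 1 fell, the proteoglycan Cspg5 (-0.60 ± 0.17, with its second transcript not called and the call lost with all 80 hippocampal arrays in the fit, adjusted p = 0.138).

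The promoter of Mag is shown for the myelin genes that rose, at chr1:95290995-95291294 (minus strand).
Mag: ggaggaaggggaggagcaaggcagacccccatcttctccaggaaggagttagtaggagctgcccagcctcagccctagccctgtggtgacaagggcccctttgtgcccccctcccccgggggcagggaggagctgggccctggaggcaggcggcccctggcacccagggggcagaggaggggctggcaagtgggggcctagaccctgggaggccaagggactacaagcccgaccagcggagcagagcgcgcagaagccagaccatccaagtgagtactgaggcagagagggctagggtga
None of the searched motifs was found in it, which says only that these letters are not in this window. A CCAAT box occurred in 5 of 13 myelin promoters (38.5%).

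Microglial genes rose in 4 of 17 measured members and fell in 0, with a median of 0.31. Ctss, a lysosomal protease of microglia, measured 7.96, 8.19, 8.62, 8.65 and 9.43 in HR at P14, against 5.84, 6.57, 6.70, 6.65 and 7.41 in HR at P07. The LR values were 8.65, 9.30, 9.53, 9.52 and 9.02 at P14, against 6.70, 7.07, 7.55, 5.97 and 7.63 at P07. All P14 arrays were above all P07 arrays (2.08 ± 0.23, adjusted p = 3.25e-07). The complement genes C1qb (1.43 ± 0.23) and C1qa (0.93 ± 0.22) rose, as did Aif1, a calcium-binding protein of microglia (1.33 ± 0.21). P2ry12 and Cx3cr1, receptors of resting microglia, were not called, at 0.14 ± 0.28 and -0.13 ± 0.21. The list's intensities summed to 2901 to 4931 at P14 and 2200 to 3133 at P07.

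Astrocyte genes moved both ways, with 5 of 18 higher, 1 lower and a median of 0.19. S100b, a calcium-binding protein of maturing astrocytes, ranged from 11.07 to 11.79 over the P14 arrays and from 9.20 to 10.20 over the P07 arrays (1.68 ± 0.16, adjusted p = 4.31e-08). Slc1a2, the main glutamate transporter of mature astrocytes, ranged from 10.48 to 11.46 over the P14 arrays and from 8.43 to 10.01 over the P07 arrays (1.63 ± 0.17), and its second transcript rose by 2.14 ± 0.18. For both genes the ages did not overlap. Slc1a3, the glutamate transporter that radial glia carry early, fell (-0.74 ± 0.16), a call not made for this step of Slc1a3 with all 80 hippocampal arrays in the fit (adjusted p = 0.0594). The gap junction gene Gjb6 rose by 1.14 ± 0.26 with overlapping arrays. The water channel Aqp4 of astrocyte endfeet was not called (-0.04 ± 0.18).

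Few markers of vessels, blood or neighbouring brain regions were called in the mean of HR and LR. Of 18 endothelial and pericyte genes 1 rose, Vtn (0.82 ± 0.18), a matrix protein of pericytes. Of 11 meningeal genes 2 rose and 0 fell, with a median of 0.35. Those that rose were the collagens Col1a2 (0.65 ± 0.19) and Col3a1 (0.55 ± 0.17). The call of Col3a1 was lost, at adjusted p up to 0.0626, when any 1 of 6 arrays was left out, which were HR replicate 1 and LR replicates 3 and 5 at P14 and HR replicates 1 and 4 and LR replicate 1 at P07. With all 80 hippocampal arrays in the fit 0 meningeal genes were called, with an adjusted p of 0.102 for the step of Col1a2 and 0.331 for that of Col3a1. The meningeal list summed to 1468 to 3068 at P14 and 1348 to 1993 at P07, and its part in other results was not tested. In the mean of HR and LR 0 of 9 blood genes were called. In HR alone 2 were higher (median 0.56), and in LR 0 were called (median -0.31). At P07 their intensities summed to 23855 to 55697 in HR and 56006 to 91732 in LR. At P14 the sums were 37884 to 55030 in HR and 47495 to 60026 in LR. The part of blood in other results was not tested. Of 17 markers of thalamus, striatum and hypothalamus 1 rose, the neuropeptide gene Tac3 (0.67 ± 0.16), and 1 fell.

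Interneuron markers split, with 5 of 18 higher, 2 lower and a median of -0.06. Pvalb, the calcium buffer parvalbumin, measured 7.48, 7.49, 7.20, 7.94 and 8.46 in HR at P14, against 5.92, 7.12, 5.25, 5.86 and 5.81 in HR at P07. LR arrays read 7.99, 8.34, 8.88, 8.15 and 8.67 at P14, against 6.29, 6.81, 6.42, 5.92 and 6.25 at P07. The lowest P14 array was just above the highest P07 array, and the change was 1.90 ± 0.21 (adjusted p = 3.51e-07). Most HR arrays at P07 were near the level of the random control, so the size of the Pvalb step is poorly resolved. Peptides of other interneuron classes rose with overlap between the 10 arrays of each age: somatostatin (Sst, 1.18 ± 0.25), cholecystokinin (Cck, 1.03 ± 0.19) and neuropeptide Y (Npy, 0.76 ± 0.16). Kcnc1, a potassium channel of fast-spiking cells, rose by 0.81 ± 0.20. Reln, the secreted protein of Cajal-Retzius cells and some interneurons, ranged from 7.77 to 9.19 over the P14 arrays and from 9.66 to 10.81 over the P07 arrays. It fell without overlap (-1.49 ± 0.19, adjusted p = 2.76e-06), and Dlx5, a transcription factor of young interneurons, fell as well (-0.89 ± 0.21).

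In the list of social and stress peptides and receptors 7 of 37 rose and 0 fell, with a median of 0.05. This list shares Sst, Cck and Npy with the interneuron markers. Cartpt, the precursor of CART peptide, measured 8.38, 9.09, 9.76, 9.47 and 10.18 in HR at P14, against 7.42, 7.53, 7.47, 7.31 and 8.21 in HR at P07. In LR it measured 8.95, 8.81, 9.44, 9.23 and 9.57 at P14, against 6.59, 7.11, 7.60, 7.88 and 6.57 at P07. Gal, the precursor of galanin, measured 8.96, 9.16, 9.54, 8.67 and 8.62 in HR at P14, against 6.89, 6.87, 6.88, 6.92 and 7.31 in HR at P07. The LR values were 7.52, 7.47, 8.87, 7.62 and 8.55 at P14, against 6.49, 7.21, 6.05, 6.34 and 6.01 at P07. Neither gene's ages overlapped, with changes of 1.92 ± 0.22 for Cartpt (adjusted p = 4.76e-07) and 1.80 ± 0.21 for Gal (adjusted p = 4.32e-07). Ntsr2, a neurotensin receptor found on astrocytes, rose by 1.29 ± 0.19. The stress peptide Crh (0.28 ± 0.31) and its receptor Crhr1 (-0.32 ± 0.24) were not called. The corticosteroid receptors Nr3c1 (-0.29 ± 0.17) and Nr3c2 (-0.30 ± 0.17) and the receptor's co-chaperone Fkbp5 (-0.10 ± 0.18) were not called either. Nr3c1 ranged from 5.56 to 6.97 over the P14 arrays and from 5.63 to 6.73 over the P07 arrays. Fkbp5 ranged from 5.43 to 6.72 and from 5.55 to 6.76. Both were dim, near the level of the random control, so a change in them is poorly resolved. In the list of glucocorticoid receptors and response genes 2 of 18 rose, the metal-binding Mt3 (1.25 ± 0.15) and Mt1 (0.72 ± 0.23, adjusted p = 0.0395). Whether glucocorticoids bear on either was not tested. The call of Mt1 was lost, at adjusted p up to 0.0811, without any 1 of 13 arrays, namely HR replicates 1 to 4 and LR replicates 1 to 4 at P14 and HR replicates 4 and 5 and LR replicates 2, 4 and 5 at P07. It was also lost with all 80 hippocampal arrays in the fit (adjusted p = 0.0617) and after quantile normalization (adjusted p = 0.09). Of 16 thyroid hormone genes Mbp and Nrgn rose and the receptor Thra fell (-0.89 ± 0.20).

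In 3 lists of synaptic genes more members were called lower than higher. Of 43 synaptic vesicle genes 8 fell and 1 rose, with a median of -0.18. They included the synaptotagmin Syt4 (-1.18 ± 0.21), the vesicular glutamate transporter Slc17a6 (-1.07 ± 0.22) and the endocytic protein Amph (-1.06 ± 0.21), while the fusion factor Napa rose (0.89 ± 0.20). Of 28 metabotropic receptors and scaffolds 5 fell and 1 rose, led by Nlgn2, an adhesion protein of inhibitory synapses (-1.10 ± 0.22). Of 26 GABA genes 4 fell and 0 rose, led by the receptor subunit Gabra5 (-0.97 ± 0.21), whose ages did not overlap. With all 80 hippocampal arrays in the fit 4 vesicle genes, 0 scaffold genes and 1 GABA gene were lower. In fostered LR pups the balance of these lists was the other way from this mean of HR and LR for the same step. Of 19 ionotropic glutamate receptor genes 2 rose and 2 fell in own-mother pups. Grin2b, the NMDA receptor subunit of early life, fell (-0.86 ± 0.23, adjusted p = 0.0118), but the step of Grin2b was not called with all 80 hippocampal arrays in the fit (adjusted p = 0.0768). Its later counterpart Grin2a (0.18 ± 0.20) and the chloride transporters Slc12a5 (-0.09 ± 0.23) and Slc12a2 (-0.15 ± 0.22) were not called.

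Among ion channels, 3 of 47 potassium and HCN genes rose and 2 fell. The axonal channel Kcna1 rose by 0.86 ± 0.16, and Hcn3 fell (-0.99 ± 0.16). Of 28 sodium and calcium channel genes 3 rose and 4 fell. Scn3a, the sodium channel of embryonic brain, fell (-0.75 ± 0.19). Ncan, a matrix proteoglycan of young brain, ranged from 8.66 to 9.41 over the P14 arrays and from 9.80 to 10.95 over the P07 arrays, without overlap (-1.19 ± 0.15, adjusted p = 1.89e-06). Acan, the core proteoglycan of perineuronal nets, was not called (0.11 ± 0.20). The neurotrophin Bdnf ranged from 7.54 to 9.82 over the P14 arrays and from 6.79 to 8.01 over the P07 arrays (1.40 ± 0.20, adjusted p = 1.1e-05). Its receptor Ntrk2 was not called (-0.59 ± 0.23), and neither were the activity-induced genes Arc (-0.07 ± 0.24) and Egr1 (-0.22 ± 0.22).

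In the cholesterol synthesis list 10 of 23 measured members were lower and 0 higher, with a median of -0.69, and the count without the replicate 5 arrays was 10. The promoters of Acat2, the thiolase at the start of the pathway, and Hmgcs1, which acts next, are shown as those of the members that fell most. They lie at chr1:50100590-50100889 (plus strand) and chr2:53382054-53382353 (plus strand).
Acat2: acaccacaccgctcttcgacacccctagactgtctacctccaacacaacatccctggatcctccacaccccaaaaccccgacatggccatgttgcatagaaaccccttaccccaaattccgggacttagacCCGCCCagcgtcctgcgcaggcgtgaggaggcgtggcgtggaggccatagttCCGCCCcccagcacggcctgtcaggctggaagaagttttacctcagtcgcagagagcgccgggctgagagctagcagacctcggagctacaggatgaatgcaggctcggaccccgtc
Hmgcs1: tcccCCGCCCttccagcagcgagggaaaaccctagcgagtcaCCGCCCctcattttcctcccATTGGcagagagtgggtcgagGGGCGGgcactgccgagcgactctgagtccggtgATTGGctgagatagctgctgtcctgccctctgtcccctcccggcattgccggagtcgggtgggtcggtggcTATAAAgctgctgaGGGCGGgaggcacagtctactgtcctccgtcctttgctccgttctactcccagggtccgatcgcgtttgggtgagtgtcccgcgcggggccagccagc
Acat2 has 2 GC boxes, and Hmgcs1 has 4 GC boxes, 2 CCAAT boxes and 1 TATA box. Of the 17 list members whose promoters were searched, 15 held a GC box (88.2%) and 14 a CCAAT box (82.4%). Among measured genes the shares were 47% and 39.1%. The sterol element letters occurred in 1 of 17 (5.88%), against 2.18% of measured genes and 2.57% of all promoters.

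Hmgcs1 measured 8.49, 8.41, 8.60, 8.81 and 9.07 in HR at P14, against 9.80, 9.54, 10.21, 9.91 and 10.42 in HR at P07. LR arrays read 8.24, 8.0, 8.55, 8.94 and 8.77 at P14, against 9.61, 9.45, 10.01, 9.61 and 10.43 at P07. No P14 array reached a P07 array (-1.31 ± 0.18, adjusted p = 6.05e-06). Acat2 fell with some overlap (-1.36 ± 0.25), and Insig1, which holds back the sterol-sensing SREBP complex, fell with none (-1.24 ± 0.18). Msmo1, an oxidase further along the pathway, fell too (-1.16 ± 0.18). Srebf2, the transcription factor of the pathway, was not called (-0.23 ± 0.20). Fasn, the fatty acid synthase outside the list, ranged from 8.13 to 10.02 over the P14 arrays and from 9.90 to 11.54 over the P07 arrays. Its ages were apart within each line (-1.57 ± 0.23, adjusted p = 1.53e-05). Idh1, a cytosolic enzyme that yields NADPH, fell without overlap (-1.87 ± 0.20).

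Respiratory chain genes rose in 11 of 30 measured members and fell in 0, with a median of 0.49. Without the replicate 5 arrays 13 rose and 2 fell. Ndufs7, a complex I subunit, ranged from 10.63 to 11.67 over the P14 arrays and from 9.41 to 10.61 over the P07 arrays, without overlap (1.23 ± 0.18, adjusted p = 2.15e-05). The ATP synthase subunits Atp5pd (1.11 ± 0.16) and Atp5mc1 (0.92 ± 0.15) and the cytochrome oxidase subunit Cox7b (0.82 ± 0.21) rose. The catalytic ATP synthase subunit Atp5f1b was not called (-0.56 ± 0.20). Chchd10, a mitochondrial protein outside the list, rose without overlap (1.69 ± 0.18, adjusted p = 1.15e-07). Of 38 cytosolic ribosomal protein genes 1 rose and 0 fell, and of 26 glycolysis and ketone genes 2 rose and 2 fell, among them the first enzyme of glycolysis, Hk1 (-0.82 ± 0.20). With all 80 hippocampal arrays in the fit 0 glycolysis and ketone genes were higher and 0 lower, and the step of Hk1 had an adjusted p of 0.0746.

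**Figure D2:**
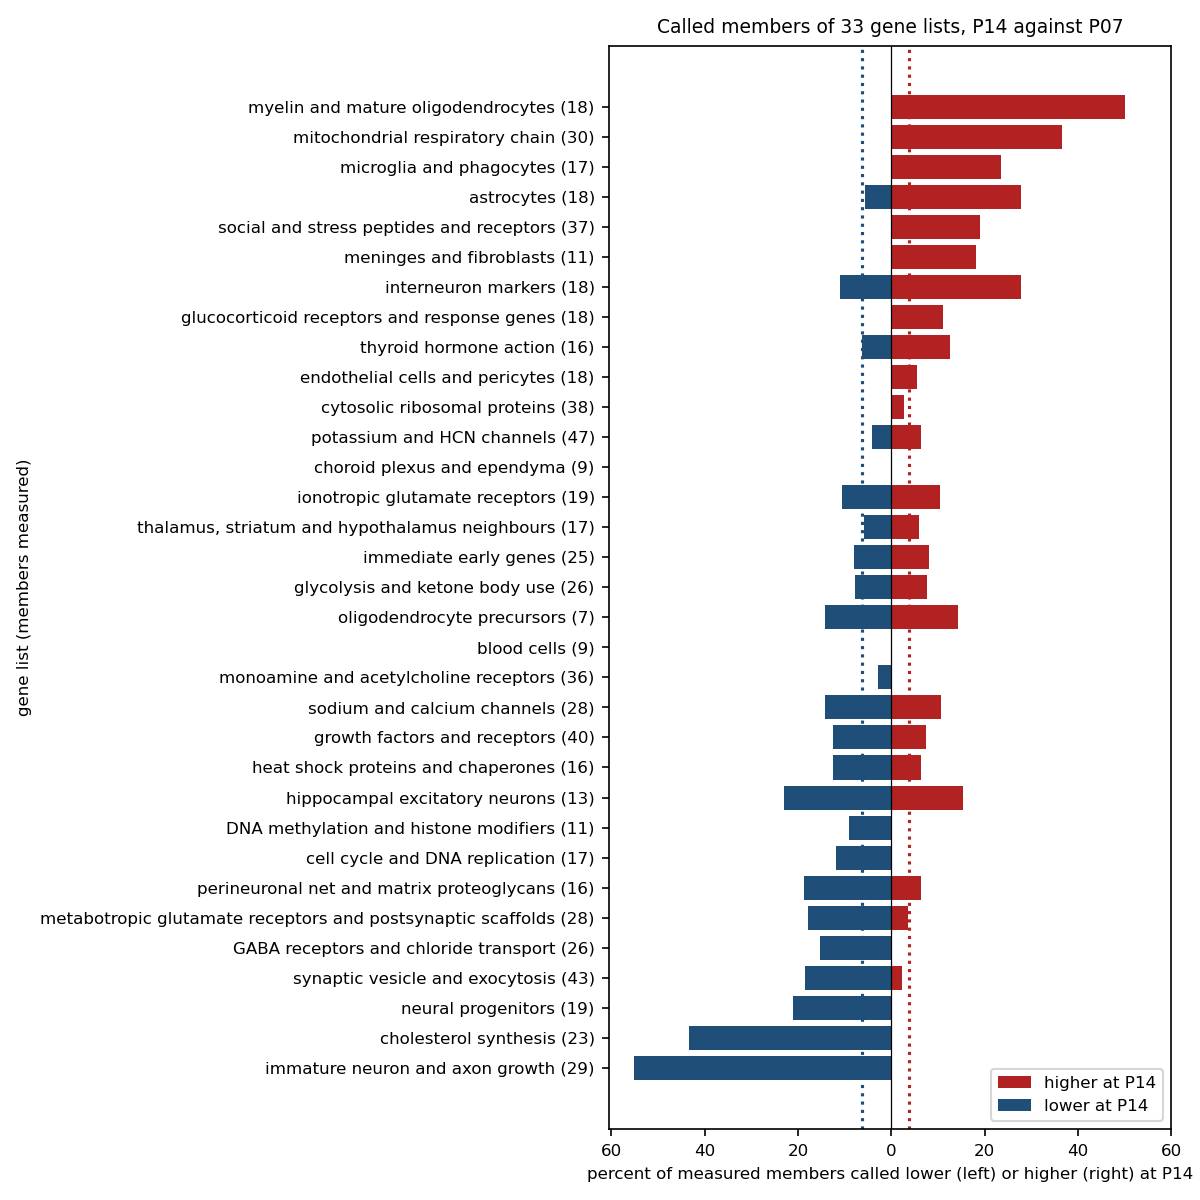
Percent of the measured members of each of 33 gene lists called higher (right) or lower (left) at P14; dotted lines mark the shares of all genes with a symbol, 3.78% higher and 6.37% lower. Myelin (9 of 18) and the respiratory chain (11 of 30) lie far to the right, and immature neuron (16 of 29) and cholesterol synthesis (10 of 23) far to the left.

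Some of the largest changes lay outside the lists. Gsta1, a glutathione transferase, rose by 1.70 ± 0.25 and Spetex2e by 1.67 ± 0.17, both without overlap within each line. Septin9, a cytoskeletal GTPase (-1.76 ± 0.21), Matcap1, which trims the tail of alpha-tubulin (-1.67 ± 0.17), and Kidins220, a scaffold of neurotrophin receptors (-1.55 ± 0.16), fell with no overlap. The second Septin9 transcript was not called (-0.69 ± 0.26).

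Whether the lines differed in this step was tested as the HR step minus the LR step. In HR 1850 transcripts (7.14%) were called, 1080 higher (4.17%) and 770 lower (2.97%). Without HR replicate 5 at P14 the HR step had 1212 higher and 1311 lower, a turned balance. The lower count was 461, 439 and 480 without HR replicate 1, 2 or 4 at P14, and 457 and 444 without HR replicate 3 or 5 at P07. In LR 1071 (4.14%) were called, 775 higher (2.99%) and 296 lower (1.14%), with 178 and 177 lower without LR replicate 1 or 4 at P14. Both lines called 577 in the same direction and 0 in opposite directions. The step itself differed in 14 transcripts (0.0541%), 10 with a higher step in HR (0.0386%) and 4 with a lower one (0.0154%), and in 2628 (10.1%) at an unadjusted p under 0.05. After quantile normalization there were 18, of which 11 were higher and 7 lower. The count and its balance depended on the fit: 92 with an offset of 50 (63 higher and 29 lower), and 5 to 41 with 1 array left out, where 19 were higher and 22 lower without HR replicate 5 at P14. Hba-a3, an alpha globin, was the 1 of the 14 with a gene symbol. The other transcripts with a higher step in HR had the highest of their 4 group means in HR at P14, unlike Hba-a3. For the largest difference the means were 8.80 in HR at P14, 5.99 in HR at P07, 6.25 in LR at P14 and 6.02 in LR at P07. All but the first of these means lay near the level of the random control, so the size of that difference is poorly resolved. Hba-a3 measured 7.01, 7.61, 7.56, 7.98 and 6.98 in HR at P14, against 5.74, 5.87, 5.62, 6.35 and 6.39 in HR at P07. In LR it measured 7.72, 8.11, 7.93, 7.70 and 7.16 at P14, against 8.20, 8.0, 8.60, 8.06 and 9.35 at P07. The HR arrays at P07 were the low ones, near the level of the random control, so the size of the HR step is poorly resolved. The step was 1.43 ± 0.28 in HR and -0.72 ± 0.28 in LR (difference 2.15 ± 0.40, adjusted p = 0.03). At P21 Hba-a3 averaged 6.20 ± 0.59 in HR and 7.99 ± 0.43 in LR (SD, n = 5 each). The line difference of the step of Hba-a3 was no longer called when any 1 of 10 arrays was left out, at adjusted p = 0.0519 to 0.0692. These were HR replicates 2, 3 and 4 and LR replicates 1, 4 and 5 at P14, and HR replicates 1, 2 and 3 and LR replicate 3 at P07. Alpha globin genes are near-identical copies, so this probe set may read more than 1 of them, and the blood gene Hbb was not called for the difference (1.04 ± 0.40). Neurod1, a transcription factor of young granule neurons, had a step of -1.58 ± 0.26 in HR and 0.07 ± 0.26 in LR, a difference that was not called (-1.65 ± 0.37, adjusted p = 0.0934).

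**Figure D3:**
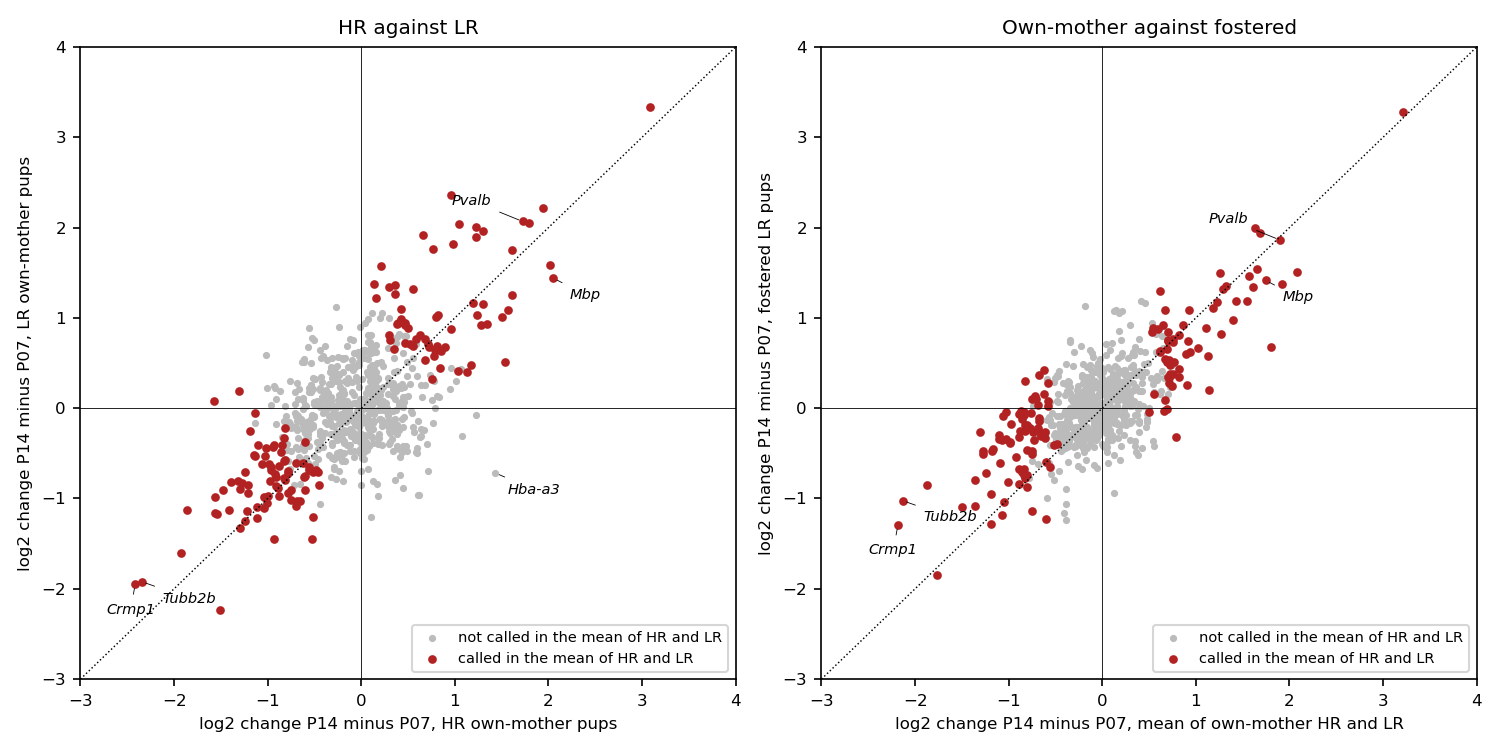
Log2 change from P07 to P14 of the 705 measured list genes: left, HR (horizontal) against LR (vertical); right, own-mother mean of HR and LR (horizontal) against fostered LR pups (vertical). Red points were called in the own-mother mean; Mbp and Pvalb lie at the upper right and Crmp1 and Tubb2b at the lower left.

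The same step was measured in 20 arrays of fostered LR pups, which had no part in the comparison above. There 1261 transcripts (4.87%) were called, 855 higher (3.3%) and 406 lower (1.57%). Called the same way in both were 812 transcripts, 29.4% of the own-mother calls and 64.4% of the fostered calls, and 6 were called opposite ways. The sign was the same for 89.4% of the own-mother calls, against 64.0% of all transcripts. Mbp (1.41 ± 0.21), Pvalb (1.86 ± 0.19) and S100b (1.94 ± 0.14) rose in fostered pups. Crmp1 (-1.29 ± 0.20), Tubb2b (-1.02 ± 0.15) and Dpysl3 (-1.85 ± 0.18) fell. By list, 12 of 29 immature neuron genes and 5 of 23 cholesterol genes fell, and 5 of 18 myelin and 13 of 30 respiratory chain genes rose, with none the other way in these lists. Synaptic lists went against the balance of the own-mother mean of HR and LR. Of the vesicle genes 7 rose and 1 fell in fostered pups (median 0.16), against 1 and 8 in that mean. The scaffold list had 3 higher and 1 lower in fostered pups, against 1 and 5, and the GABA list 2 and 0, against 0 and 4. The fostered pups were all LR, so line also differs here. In own-mother LR pups alone, 1 vesicle gene was higher and 3 lower (median -0.13). Their scaffold list had 0 higher and 1 lower, and their GABA list 1 and 1. No member of these 3 lists was called for the difference between fostered and own-mother LR pups. Hmgcs1 (-0.27 ± 0.21) and Gal (0.67 ± 0.23) were not called in fostered pups. Grin2a rose there (1.06 ± 0.19), against 0.18 ± 0.20 in own-mother pups, where it was not called.

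Whether fostered and own-mother LR pups differed in the step was tested directly. The step differed in 86 transcripts (0.332%), 20 with a higher step in fostered pups (0.0772%) and 66 with a lower one (0.255%), and in 2560 (9.89%) at an unadjusted p under 0.05. After quantile normalization there were 187, 65 higher and 122 lower. Of the list genes 2 were called. Dpysl5 was at -0.85 in fostered and -2.23 in own-mother LR pups (difference 1.38 ± 0.31, adjusted p = 0.0261). Mcm7, a subunit of the replication helicase, was at -0.94 in fostered and 0.78 in own-mother LR pups (difference -1.71 ± 0.39, adjusted p = 0.0312). The differences of Hmgcs1 (1.05 ± 0.36), Gal (-0.91 ± 0.41) and Grin2a (0.84 ± 0.34) were not called.

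From P14 to P21 3108 transcripts (12%) changed in own-mother pups, 1429 higher (5.52%) and 1679 lower (6.48%). The step after P14 differed from the step before it in 2601 (10%), 1178 higher (4.55%) and 1423 lower (5.49%). The balance of that difference turned to 1374 higher and 1340 lower after quantile normalization, and to 1532 and 1522 without HR replicate 5 at P14. Both steps share the P14 arrays, so a high or low P14 array moves them in opposite directions. Myelin genes went on rising: 15 of 18 rose after P14, and 9 had a higher step after P14 than before. Mbp averaged 8.07 ± 0.30 at P07, 10.12 ± 0.61 at P14 and 13.97 ± 0.19 at P21 in HR (SD, n = 5 each). In LR it averaged 8.48 ± 0.23, 9.92 ± 0.37 and 12.72 ± 0.90 at the same ages. Its later step of 3.32 ± 0.22 exceeded the earlier one by 1.58 ± 0.39 (adjusted p = 0.00544).

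Other genes were not called after P14 or turned. Crmp1 was not called after P14 (0.02 ± 0.19), and its steps differed by 2.20 ± 0.33 (adjusted p = 6.42e-06), while Dpysl3 (-1.39 ± 0.18) and Fabp7 (-1.87 ± 0.28) went on falling. Cartpt (-0.87 ± 0.22) and Npy (-1.11 ± 0.22) fell after P14. In the cholesterol list 4 of 23 rose after P14 and 0 fell, and 8 had a higher step after P14 than before. Fasn rose after P14 (0.77 ± 0.22), and Hmgcs1, not called there (0.49 ± 0.19), had steps that differed by 1.80 ± 0.32 (adjusted p = 0.000136). Of the vesicle genes 15 of 43 rose after P14 and 0 fell, with 13 steps higher than before. Among all genes with a symbol 8.31% rose and 1.95% fell after P14. Chchd10 (0.08 ± 0.18) and Slc1a2 (0.02 ± 0.20) were not called after P14.

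In the amygdala of own-mother pups 3313 of 22197 transcripts (14.9%) were called between P14 and P07, 1292 higher (5.82%) and 2021 lower (9.1%). The regions may have been normalized separately, so values stand side by side and no difference between regions was tested. Pvalb changed by 2.27 ± 0.19 in the amygdala, Crmp1 by -1.99 ± 0.12 and Dpysl3 by -1.85 ± 0.13. Of 18 myelin genes, amygdala arrays called 14 higher and hippocampal arrays 9. Of 23 cholesterol genes, amygdala arrays called 15 lower and hippocampal arrays 10. Respiratory chain genes were higher in 2 of 30 for amygdala, against 11 for hippocampus. Ribosomal protein genes were lower in 22 of 38 for amygdala, against 0 for hippocampus. Gal was not called in the amygdala (0.51 ± 0.25).

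**Figure D4:**
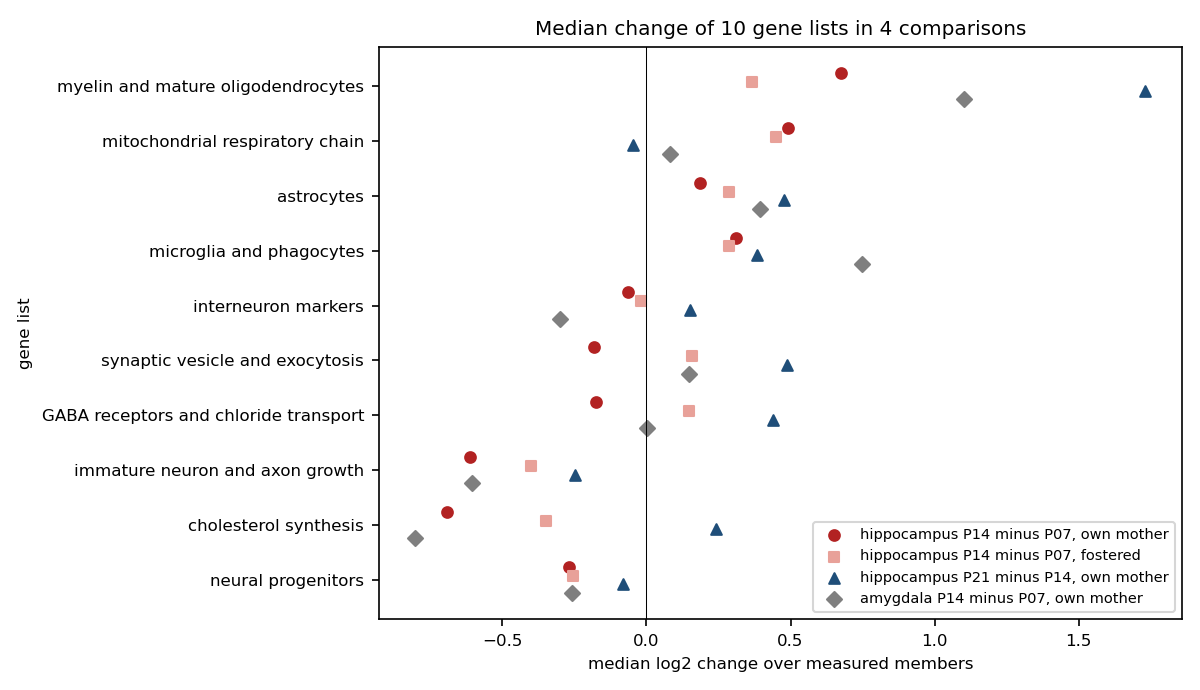
Median log2 change over the measured members (horizontal axis) of 10 gene lists in 4 comparisons: P14 minus P07 in own-mother and in fostered hippocampus, P21 minus P14 in own-mother hippocampus, and P14 minus P07 in own-mother amygdala. Immature neuron genes lie left of 0 in all 4, and cholesterol synthesis lies left of 0 from P07 to P14 (-0.69 in own-mother hippocampus) and right of 0 after P14 (0.24).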

How the data were processed

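The deposited values were linear intensities per transcript that the authors had made with RMA, per the submitters' processing notes, with no version or settings given in the sources used here. Of these deposited intensities the log2 was taken, with no offset and no filter. Symbols came from a RefSeq gene table (GRCr8), which matched 9381 of 9865 NM and 125 of 16037 XM identifiers. Unmatched transcripts were tested but not named. A gene with several transcripts was given by the brightest. No array held values identical to another.

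Models had 1 mean per group (limma 3.58.1, lmFit and eBayes, R 4.3.3; Python 3.11.15 for counts). The 20 own-mother arrays gave the steps and the HR minus LR difference, 40 hippocampal arrays the fostered step as the mean over both foster dams, 30 own-mother arrays the step to P21 and 20 arrays the amygdala. All adjusted p-values are from limma with Benjamini-Hochberg adjustment over all transcripts of a fit. The number of arrays limits the precision. The scripts were tested on simulated data.

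The comparison, its lists and the named genes were chosen with earlier results of these data known. Named genes were the 10 largest called rises and falls with no overlap within each line, called line differences with a symbol (up to 5 each way), the 3 largest calls of each list each way, and a panel of 44, of which Grin3a, Gabra2, Sox4, Top2a and Prox1 were not analysed here. Some named genes are not reported here. Other list members (such as Mag, Cldn11, Mog, Cdh2, Tubb3, Msmo1 and Mcm7) and the promoters of Crmp1, Tubb2b, Acat2 and Hmgcs1 were picked after their values were seen. Where the promoter table had a symbol more than once, the first entry was used. Alternatives were quantile normalization, 2 filters on dim transcripts, an offset of 50, trend and robust variance, array weights, 80 hippocampal arrays in the fit, each line alone, a minimum change, a replicate block, each array left out and, added after seeing the data, all replicate 5 arrays left out.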

Additional observations from a re-analysis of the deposited data

Results flagged for a closer look

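In some groups 1 array stood apart from the other 4: its gap to the nearest array, divided by the range of the group, was above the critical value for 5 arrays (0.71). This occurred in 37 of 504 gene and group combinations of the named genes reported here (7.34%), where chance gives about 1 in 20, and 27 of the 37 were replicate 5 arrays. The ratio follows each gene. HR replicate 1 at P14 stood below the other 4 arrays for Bdnf (0.91), Adrb1 (0.802) and S100b (0.724). HR replicate 3 at P14 stood above the other 4 arrays for Spetex2e (0.806). HR replicate 3 at P14 stood below the other 4 arrays for Gabra5 (0.784). HR replicate 5 at P14 stood above the other 4 arrays for Grin1 (0.887), Aldoa (0.884), Mbp (0.821), Syt4 (0.805), Sst (0.781), Pfkp (0.781), Hk1 (0.761), Mt3 (0.736), Tubb5 (0.734), Thra (0.732) and Atp1b1 (0.724). LR replicate 4 at P14 stood above the other 4 arrays for Crhr1 (0.737). LR replicate 5 at P14 stood above the other 4 arrays for Slc12a2 (0.768). LR replicate 5 at P14 stood below the other 4 arrays for Mt1 (0.739). HR replicate 1 at P07 stood above the other 4 arrays for Dll1 (0.792). HR replicate 1 at P07 stood below the other 4 arrays for Ier5 (0.764). HR replicate 5 at P07 stood above the other 4 arrays for Hk1 (0.906), Gal (0.888), Insig1 (0.834), Ntrk2 (0.799), Gabbr1 (0.797), Cartpt (0.757), Sst (0.723) and Nrgn (0.72). LR replicate 1 at P07 stood below the other 4 arrays for Fgf13 (0.753). LR replicate 3 at P07 stood above the other 4 arrays for Fkbp5 (0.855). LR replicate 5 at P07 stood above the other 4 arrays for Dpysl5 (0.845), Fasn (0.835), Zbtb18 (0.812), Nrgn (0.807), Col1a2 (0.747) and Idh1 (0.717).

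The step differed between HR and LR in 14 transcripts, among which Hba-a3 had a difference of 2.15 (HR minus LR).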

How the results depend on the processing

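No called step of a named gene changed sign in the alternatives run, but the balance of higher and lower calls turned for 3 counts (the HR step, the line difference and the later minus the earlier step, given above). Of 107 called named genes, 85 stayed called whichever 1 array was left out, and 45 under every other alternative, among which all 80 hippocampal arrays in the fit ended 25 calls and a minimum change of 1 ended 61. Leaving out 1 array gave 2453 to 3127 calls for the mean step, 1369 to 2523 for HR, 772 to 1240 for LR, 5 to 41 for their difference, 1047 to 1271 for the fostered step, 52 to 132 for fostered minus own-mother LR, 2112 to 3054 for the later minus the earlier step and 2850 to 3512 for the amygdala. A minimum change of 1 left 909 calls of the mean step. The count of line differences, 14 with all arrays, was 24 among transcripts above the median intensity, 92 with an offset of 50, 37 with array weights, 34 with 80 arrays and 25 without the replicate 5 arrays (an alternative chosen after seeing the data). It also moved to 8 without HR P14 replicate 3, 6 without HR P14 replicate 4, 41 without HR P14 replicate 5, 8 without LR P14 replicate 2, 5 without LR P14 replicate 4, 8 without HR P07 replicate 1, 7 without HR P07 replicate 2, 7 without HR P07 replicate 4, 8 without LR P07 replicate 2, 6 without LR P07 replicate 3 and 22 without LR P07 replicate 5. The count for fostered minus own-mother LR, 86, was 187 after quantile normalization and 164 above the median intensity, and moved to 132 without LR-LR P07 replicate 5, 55 without LR P14 replicate 3, 52 without LR P14 replicate 4, 54 without LR P14 replicate 5. The causes were not tested. Hba-a3, whose mean step was 0.36 ± 0.20, was called without the replicate 5 arrays (step of Hba-a3 0.65, adjusted p = 0.0214).

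Groups share replicate numbers. Of 30 pairs of same-numbered own-mother arrays 24 had deviations that correlated above 0.1 (lowest 0.0584, median 0.287), and all 20 arrays correlated best with their own number, a hint from the data and not from the design. With the replicate block the counts of calls were 4313 for the mean step, including all 2759, 3275 for HR, 2311 for LR, 225 for the line difference (110 higher and 115 lower, including Neurod1 at adjusted p = 0.02), 2507 for the fostered step and 637 for fostered minus own-mother LR. With 5 arrays a group, small changes and transcripts near the random control are poorly resolved: 2345 transcripts averaged no more than that control, 14 of them called.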

Other observations

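Several gene groups were not described above. Of 36 monoamine and acetylcholine receptor genes 1 fell, the beta adrenergic receptor Adrb1 (-0.89 ± 0.25), and 0 rose. Of 11 measured DNA methylation and histone modifier genes 1 fell, the deacetylase Hdac3 (-0.73 ± 0.20). Of 16 chaperone genes 1 rose, Cryab, a small heat shock protein abundant in oligodendrocytes (1.13 ± 0.18), and 2 fell, the constitutive chaperone Hspa8 (-0.83 ± 0.18) and the endoplasmic chaperone Calr (-0.65 ± 0.18). With all 80 hippocampal arrays in the fit 0 chaperone genes were lower (adjusted p = 0.0702 for the step of Hspa8 and 0.0922 for that of Calr). Of 40 growth factor genes 3 rose and 5 fell. Midkine (Mdk), a heparin-binding growth factor, rose by 0.90 ± 0.16, and Fgf13, a sodium channel partner in neurons, fell (-0.88 ± 0.16). Of 25 immediate early genes 2 rose and 2 fell, with Ier5 the largest fall (-0.83 ± 0.22).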
